A study of Micropterus salmoides with 18 samples.

Results

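The genes dmrt1, amh, sox9a, wt1a, wt1b and gata4, which are known for their part in making a testis, were followed in RNA sequencing libraries from the gonads of a farmed freshwater fish, the largemouth bass Micropterus salmoides. These 6 of the 43106 entries of the expression table were found by their symbols, and all 6 were present. The study's design text gives 216 fish over 12 tanks of 18, the sexes apart, and gonads were taken at day 0 (IC), after 28 days at 20 °C (NC) or after 28 days at 28 °C (HT), the heated tanks having been brought to 28 °C within 2 h. The labels give a temperature for NC and HT and none for IC. The 18 libraries formed 6 groups of 3, with F or M in the label read as the sex of the tank. Neither strain, age nor the number of fish behind a library is given.

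The letters did not match the gonad genes. The egg coat gene zpd lay between 205 and 403 FPKM (a level set per length of the gene and per mapped fragments of the library) in 9 libraries, those with the labels HT-M, IC-M and NC-F, and between 2.06 and 8.04 in the other 9, with the labels HT-F, IC-F and NC-M. The sperm tail gene odf3b lay between 0 and 1.17 in the first set and between 309 and 1420 in the second. The first set is called ovary-type and the second testis-type, and every group keeps its label. Comparisons within a gonad type therefore cross the letters, and the labels do not say whether the letters or the prefixes are at fault. Nothing in the labels tells if a group's 3 libraries are 3 fish, so the p-values rest on a spread that may be only technical. Summed over genes, FPKM came to 745181 to 1020595 per library, and the depth is unknown. The sums of HT-M (895290 to 919525) all lay below those of NC-F (983914 to 1020595). Genes with at least 1 FPKM numbered 16305 to 16420 in HT-M and 15345 to 15536 in NC-F. Libraries labelled NC-M stood apart from each other, with correlations of 0.903 to 0.945 across genes against 0.958 to 0.99 within the other groups.

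In vertebrates the somatic cells of the early gonad carry the zinc finger proteins of the Wt1 and Gata families, which act before the gonad takes on a sex. Sox9 and the DM domain protein Dmrt1 then act on the testis side, and Sertoli cells secrete anti-Müllerian hormone (Amh). In fish, Dmrt1 and its copies and relatives of Amh are known as sex determining genes in several species, and granulosa cells of the adult ovary also make Amh. Warm water can turn genetic females into males in some fish when it acts on the larval gonad. The comparison addressed whether gonads that still read as ovaries gained the testis genes at 28 °C.

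**Figure D1:**
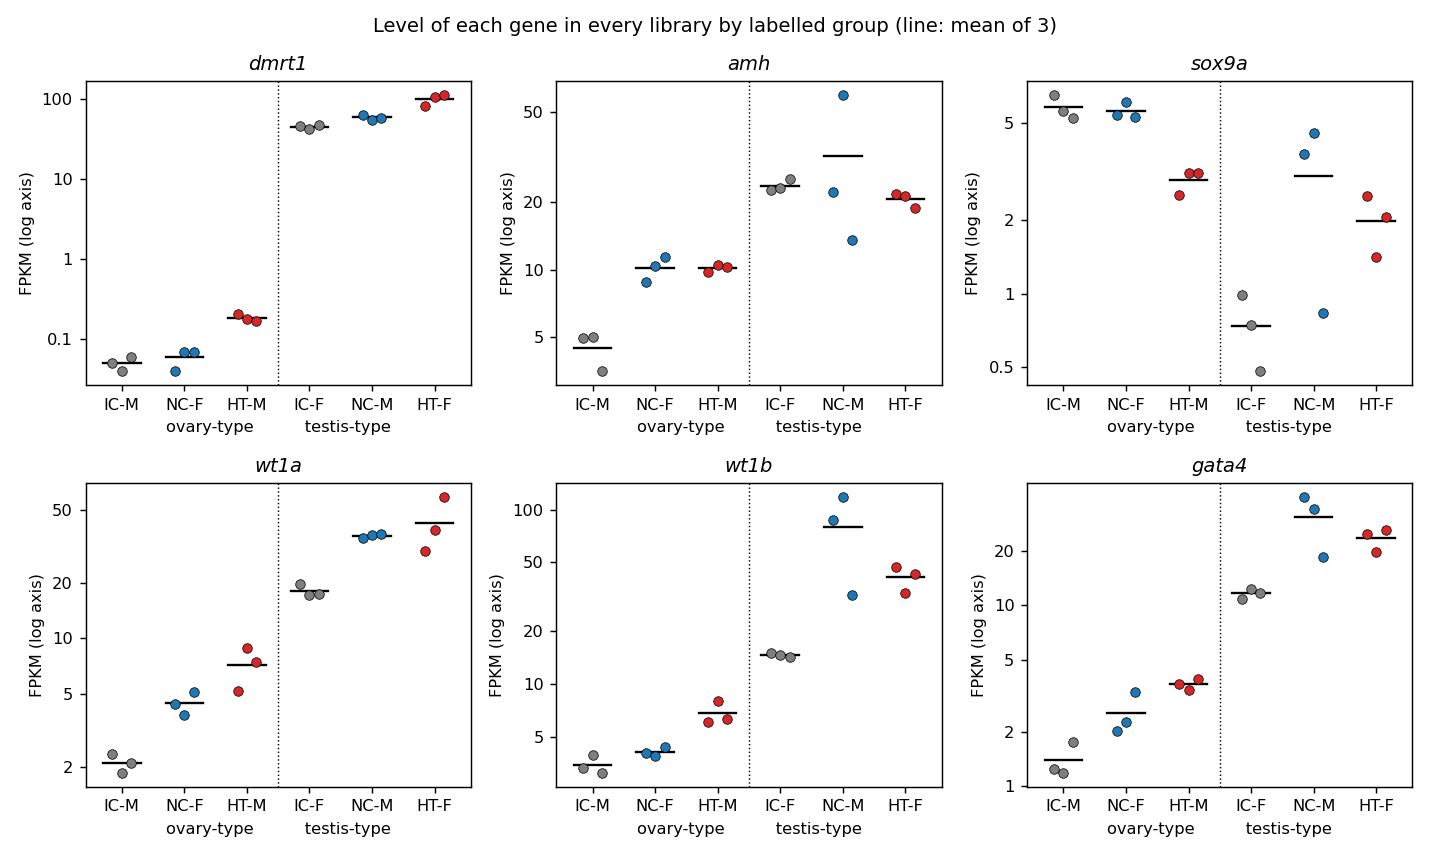
FPKM (log axis) of the 6 genes in each of the 18 libraries, with ovary-type groups left and testis-type groups right of the dotted line and the group mean as a bar. Dmrt1 stayed between 0.04 and 0.21 in all ovary-type libraries and sox9a was higher in IC-M and NC-F than in any testis-type library.

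Of the 6 genes, dmrt1 was the one nearest to absent in an ovary. Dmrt1 encodes a transcription factor that keeps the testis fate of supporting and germ cells. It was listed at 0.05, 0.04 and 0.06 FPKM in the libraries labelled IC-M, at 0.04, 0.07 and 0.07 in NC-F and at 0.21, 0.18 and 0.17 in HT-M. The HT-M libraries lay above the other 6 ovary-type libraries, all of which stayed under 0.1. In the testis-type groups dmrt1 stood at 46.2, 41.7 and 47.1 in IC-F, at 63.0, 54.2 and 58.3 in NC-M and at 80.9, 105.5 and 111.7 in HT-F. These 3 groups did not overlap one another, and each lay far above every ovary-type library.

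The dmrt1 level of HT-M was thus 3.11 times that of NC-F, but it amounted to 0.188% of the level in HT-F, against 0.103% for NC-F over NC-M and 0.111% for IC-M over IC-F. Dmrt1 did not reach the filter for a test in the ovary-type libraries (at least 1 FPKM in at least 3 of the 9 fitted). Of 15328 genes that were above 0 in at least 1 ovary-type library and under that filter, 13.1% were higher in HT-M than in NC-F with no overlap of libraries. A share of 5.64% was lower with no overlap. With no filter, the limma test over all genes called dmrt1 (log2(FPKM + 1) difference 0.16, adjusted p = 0.00184, and 0.18 with adjusted p = 0.00148 against IC-M). The share of all genes called with no filter is not given here. With the filter, 48.7% of all genes tested were called in HT-M against NC-F, but dmrt1 is not among the genes tested there. Whether the call with no filter sets dmrt1 apart can therefore not be told. The values are given in the file with 2 decimals, so that those of NC-F rest on 1 digit.

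Amh, the anti-Müllerian hormone, was measured in ovary-type and testis-type gonads alike. It stood at 4.96, 5.01 and 3.54 FPKM in IC-M, at 8.83, 10.4 and 11.4 in NC-F and at 9.79, 10.4 and 10.3 in HT-M. Both groups of day 28 lay above day 0, and the HT-M libraries fell inside the range of NC-F. In the testis-type groups amh stood at 22.6, 23.0 and 25.1 in IC-F, at 22.2, 59.7 and 13.5 in NC-M and at 21.8, 21.2 and 18.8 in HT-F. The NC-M libraries spanned the whole range of the other testis-type libraries.

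Sox9a went against the name of a testis gene in these gonads. Sox9 is the HMG box factor that turns on Amh in Sertoli cells of mammals, and bony fish carry duplicated sox9 genes, of which sox9b was not matched by symbol in the table. Sox9a stood at 6.53, 5.61 and 5.26 FPKM in IC-M, at 5.40, 6.08 and 5.28 in NC-F and at 2.54, 3.11 and 3.12 in HT-M. In the testis-type groups it stood at 0.99, 0.74 and 0.48 in IC-F, at 3.74, 4.55 and 0.83 in NC-M and at 2.51, 1.41 and 2.06 in HT-F. By mean, IC-M and NC-F thus held the highest levels and IC-F the lowest, with NC-M, HT-M and HT-F between them, and the third NC-M library lay inside the range of IC-F.

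Wt1a and wt1b, duplicates of the Wilms tumour gene, encode zinc finger factors of the gonadal somatic cells. How the counting split reads between such copies is not given in the sources used here. Wt1a stood at 2.34, 1.85 and 2.10 FPKM in IC-M, at 4.42, 3.85 and 5.13 in NC-F and at 5.18, 8.89 and 7.45 in HT-M. In the testis-type groups it stood at 19.9, 17.3 and 17.5 in IC-F, at 35.2, 36.7 and 37.1 in NC-M and at 29.9, 38.9 and 59.4 in HT-F. Within the ovary type the 3 groups of wt1a did not overlap, with IC-M lowest and HT-M highest.

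Wt1b stood at 3.30, 3.93 and 3.09 FPKM in IC-M, at 4.02, 3.88 and 4.33 in NC-F and at 6.06, 8.02 and 6.27 in HT-M. In the testis-type groups it stood at 15.1, 14.6 and 14.3 in IC-F, at 87.3, 118.7 and 32.2 in NC-M and at 46.7, 33.1 and 42.6 in HT-F. The NC-M libraries lay far apart, the third under all HT-F libraries and the others above them.

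Gata4, a zinc finger partner of Wt1 and Sf1 in mammalian gonads, stood at 1.24, 1.18 and 1.76 FPKM in IC-M, at 2.02, 2.26 and 3.31 in NC-F and at 3.66, 3.38 and 3.92 in HT-M. In the testis-type groups it stood at 10.8, 12.3 and 11.7 in IC-F, at 39.8, 34.0 and 18.4 in NC-M and at 24.6, 19.7 and 25.9 in HT-F. The 3 ovary-type groups did not overlap, in the order IC-M, NC-F and HT-M. An unnamed coding gene overlaps the end of gata4 in the RefSeq table of assembly ASM1485139v1, which served for names and gene order only, and that gene had a mean of at most 0.547 FPKM in any group.

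Levels of testis-type and ovary-type gonads were compared at each time in a fit of all 18 libraries, with limma on log2(FPKM + 1). At day 0, 5 of the 6 genes were higher in IC-F than in IC-M and sox9a was lower, beside 77.9% of all 25184 genes tested that were called in this contrast (adjusted p under 0.05), 49.3% higher and 28.6% lower. The same split was found between NC-M and NC-F, where 76.7% of all genes were called (48.9% higher and 27.9% lower). Between HT-F and HT-M 5 genes were higher and sox9a was not called, beside 74% of all genes (47.7% higher and 26.3% lower). The median of the 6 genes was 2.29, 2.95 and 2.39 on the log2 scale at day 0, 20 °C and 28 °C, against 0.57, 0.57 and 0.52 for all genes tested. The 3 contrasts draw on separate libraries.

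Dmrt1 had the largest of these differences, of 5.45 ± 0.119 (SE) at day 0, 5.81 ± 0.119 at 20 °C and 6.39 ± 0.119 at 28 °C (limma adjusted p = 1.11e-14, 6.59e-15 and 4e-15). Dmrt1 was at most 0.21 FPKM in every ovary-type library, so it passed the filter of this fit through the testis-type libraries alone. Its p-values, and its place in the counts of higher genes, are therefore given as a description only. As a ratio of mean FPKM, testis-type over ovary-type, the dmrt1 difference was 900.1, 975 and 532. The ratios of gata4 were 8.34, 12.1 and 6.40, those of wt1a 8.70, 8.13 and 5.95 and those of wt1b 4.26, 19.5 and 6.02. For amh the ratio was 5.24, 3.11 and 2.02. Its log2 difference was 2.17 ± 0.339, 1.29 ± 0.339 and 0.94 ± 0.339 (limma adjusted p = 3.15e-05, 0.0029 and 0.0206), and the last call ended after median-of-ratios scaling (adjusted p = 0.123) and without HT-M 1 or HT-F 1 (adjusted p = 0.0501 and 0.0522).

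Sox9a differed by −1.98 ± 0.303 at day 0 and by −0.85 ± 0.303 at 20 °C (limma adjusted p = 2.63e-05 and 0.0186), being higher in the ovary-type group. The difference at 28 °C was −0.40 ± 0.303 (adjusted p = 0.24). The call at 20 °C ended without NC-F 2 (adjusted p = 0.0535) and without NC-M 3, when the difference was −0.36 (adjusted p = 0.0694). Without NC-M 3 the difference at 28 °C was called (adjusted p = 0.0264).

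**Figure D2:**
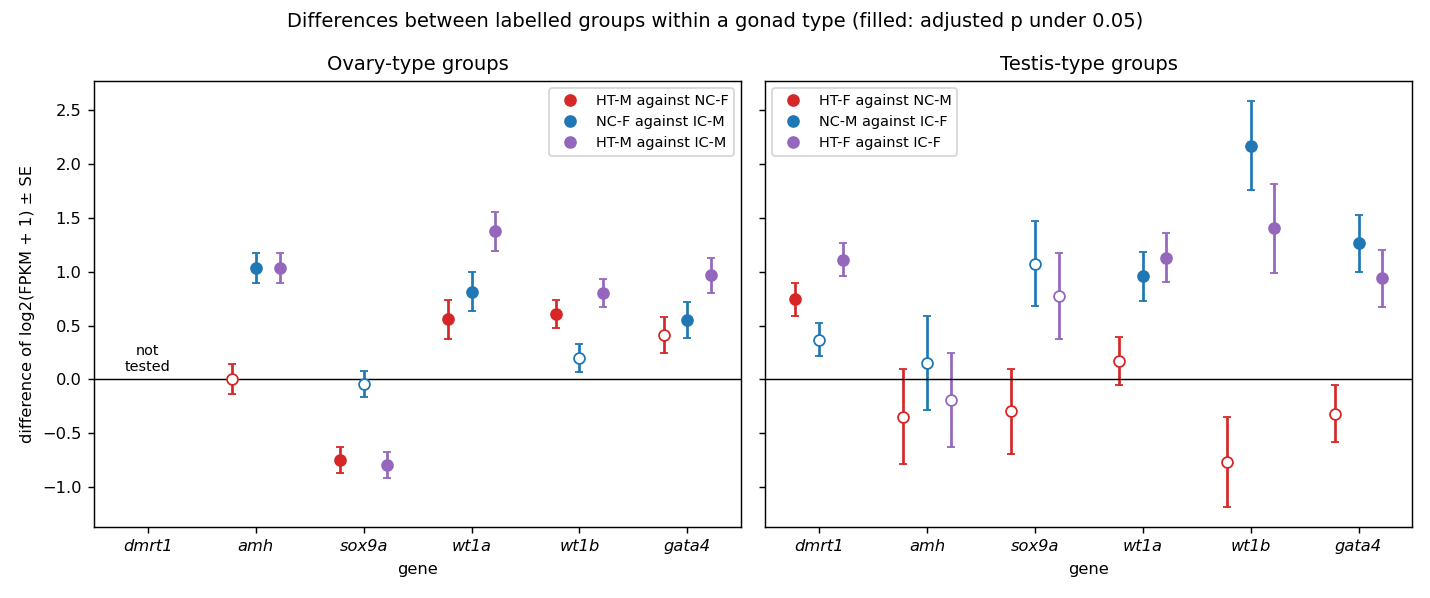
Difference of log2(FPKM + 1) between labelled groups within a gonad type, as estimated by limma with its standard error, with filled points for adjusted p under 0.05 and open points otherwise. At 28 °C against 20 °C, sox9a was at −0.75 in the ovary-type pair and dmrt1 at 0.74 in the testis-type pair, while dmrt1 was not tested in the ovary type.

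At 28 days, ovary-type gonads of 28 °C were compared with those of 20 °C (HT-M against NC-F, a fit of the 9 ovary-type libraries). Sox9a fell, wt1a and wt1b rose, and amh and gata4 did not pass the test. In all, 3 of the 5 genes tested were called, beside 48.7% of the 17026 genes tested (28.7% higher and 20% lower), so that the share called was near that of all genes. Of the 5 tested genes, 4 did not overlap between the groups, 3 higher and 1 lower, beside 61.8% of all genes tested (34.8% higher and 27.1% lower). The median of the 5 tested genes was 0.41 on the log2 scale, against 0.07 for all genes tested.

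Sox9a changed by −0.75 ± 0.12 (limma adjusted p = 0.00166), to 0.523 times its level in NC-F, and kept its call without any 1 of the 9 libraries (adjusted p from 0.00127 to 0.00834). Wt1b changed by 0.61 ± 0.131 (limma adjusted p = 0.00596), to 1.66 times, and likewise kept its call (adjusted p from 0.00494 to 0.0231). Wt1a changed by 0.56 ± 0.182 (limma adjusted p = 0.0318), to 1.61 times. Its call ended without NC-F 1, NC-F 2, HT-M 2 or HT-M 3 (adjusted p = 0.0772, 0.102, 0.0985 and 0.091), with no filter (0.0877), after median-of-ratios scaling (0.0639) and with the replicate number as a block (0.0598). Gata4 differed by 0.41 ± 0.165 (adjusted p = 0.0662), and was called without IC-M 3 or NC-F 3 (adjusted p = 0.0498 and 0.0256) and with the block (0.0475). Amh differed by 0.00 ± 0.14 (adjusted p = 0.99), with a ratio of 0.997. In a fit of all 18 libraries none of the 6 was called (adjusted p = 0.088 for sox9a, 0.0622 for wt1a and 0.197 for wt1b). At an unadjusted p under 0.05, limma had sox9a and wt1a of the 6 in the fit of 18 libraries, and 4 of the 5 tested in the fit of 9, all but amh. The share of all genes at that threshold is not given here, nor the share called in the fit of 18. In the fit of 9, 48.7% of all genes passed even the adjusted threshold, so the count there does not set these genes apart. The count in the fit of 18 has no such share beside it.

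Between day 0 and day 28 at 20 °C, NC-F was set against IC-M in the same fit. Amh rose by 1.03 ± 0.14 (limma adjusted p = 0.00132), wt1a by 0.82 ± 0.182 (adjusted p = 0.0137) and gata4 by 0.55 ± 0.165 (adjusted p = 0.0406), beside 25.5% of all genes tested called (11.9% higher and 13.6% lower). These 3 of the 5 genes did not overlap between the groups, beside 47.8% of all genes tested (25.2% higher and 22.6% lower). Wt1b differed by 0.20 ± 0.131 and sox9a by −0.04 ± 0.12 (adjusted p = 0.288 and 0.81), and both overlapped between the groups. The gata4 call ended without IC-M 1, IC-M 2, NC-F 2, NC-F 3, HT-M 1 or HT-M 3 (adjusted p between 0.0557 and 0.127), and the wt1a call without NC-F 3 (0.0562). In the fit of all 18 libraries only wt1a was called, with amh at adjusted p = 0.0653 and gata4 at 0.144. The share of all genes called in that fit is not given here.

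Against day 0, HT-M differed in all 5 genes tested. Wt1a rose by 1.38 ± 0.182, amh by 1.03 ± 0.14, gata4 by 0.97 ± 0.165 and wt1b by 0.81 ± 0.131, and sox9a fell by 0.79 ± 0.12 on the log2 scale (limma adjusted p = 0.000788, 0.00089, 0.00314, 0.00241 and 0.00166), beside 24.5% of all genes tested called (16.1% higher and 8.44% lower). None of the 5 overlapped between the groups, beside 37.2% of all genes tested that did not overlap (23.7% higher and 13.5% lower). These 5 calls held without any 1 of the 9 libraries, with adjusted p of at most 0.0181. In the fit of all 18 libraries wt1a and gata4 stayed called, and amh, sox9a and wt1b had adjusted p = 0.0622, 0.116 and 0.131. The share of all genes called in that fit is not given here. The 3 ovary-type contrasts share groups, so their values are not independent of each other.

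Set against the testis-type libraries of the same temperature, HT-M held 49.5% of the HT-F level of amh, 16.8% of wt1a, 16.6% of wt1b, 15.6% of gata4 and 0.188% of dmrt1. At 20 °C, NC-F held 32.1% of the NC-M level of amh, 12.3% of wt1a, 5.13% of wt1b, 8.23% of gata4 and 0.103% of dmrt1. At day 0, IC-M held 19.1% of the IC-F level of amh, 11.5% of wt1a, 23.5% of wt1b, 12.0% of gata4 and 0.111% of dmrt1. These shares also move with the testis-type groups below them. The amh libraries of NC-M stood at 22.2, 59.7 and 13.5 FPKM, so the NC-M mean leans on NC-M 2. The amh level of HT-M was 0.997 times that of NC-F, so its larger share at 28 °C comes from the testis-type groups. No ovary-type library overlapped a testis-type library in dmrt1, amh, wt1a, wt1b or gata4. The share of all genes that separate the gonad types in this way is not given here. By limma, 77.9% of all genes tested were called in IC-F against IC-M, 76.7% in NC-M against NC-F and 74% in HT-F against HT-M. Those shares are of another measure, so whether the lack of overlap sets these genes apart cannot be told from them. The sox9a level of HT-M was 147% of that of HT-F.

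**Figure D3:**
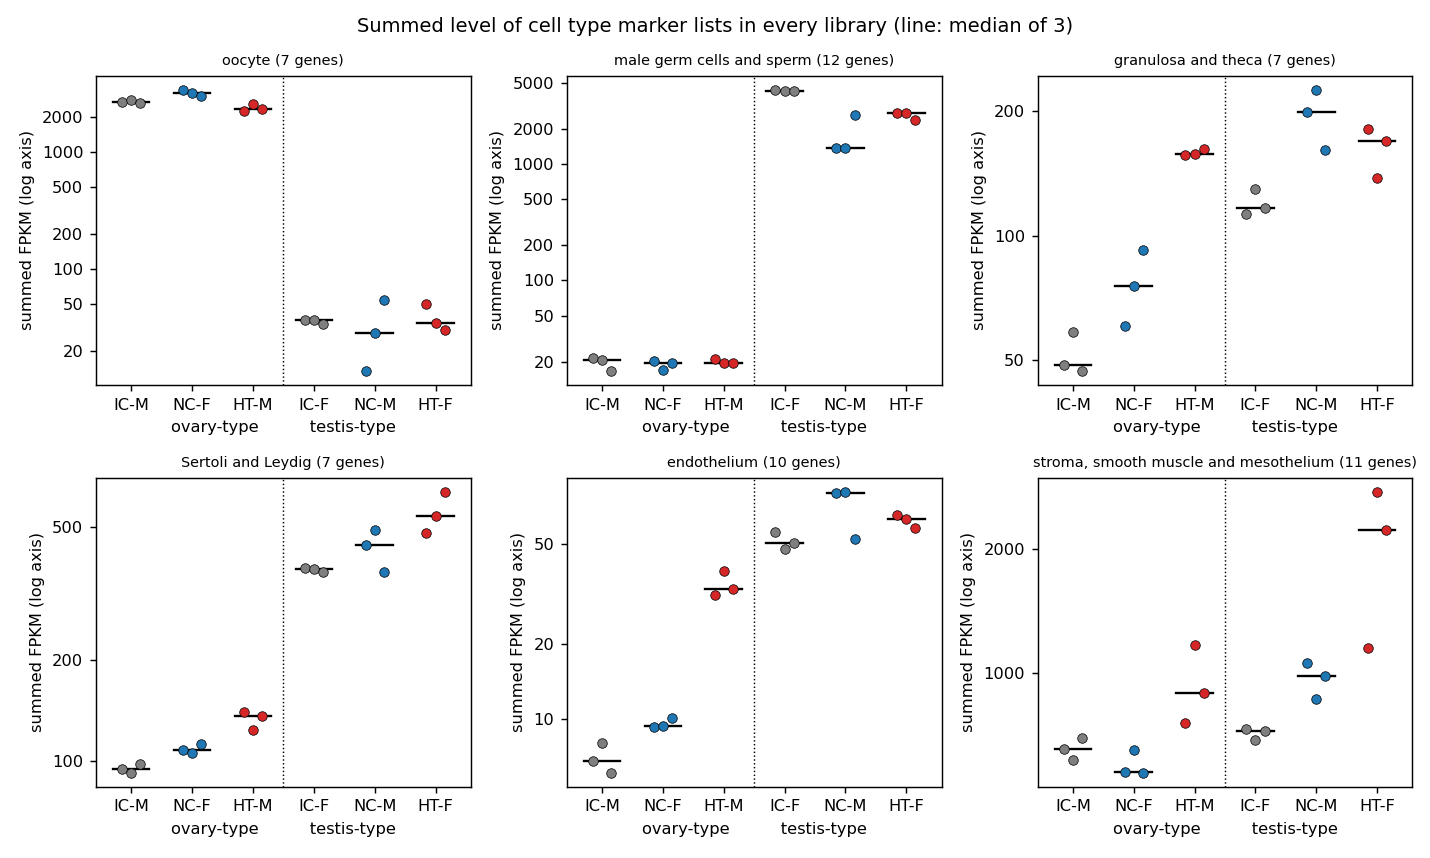
Summed FPKM (log axis) of 6 lists of cell type markers in each library, with ovary-type groups left and testis-type groups right of the dotted line and the group median as a bar. HT-M lay above NC-F in the granulosa, Sertoli and Leydig, endothelial and stromal lists, and all ovary-type libraries lay between 16.7 and 21.7 FPKM in the male germ cell list.

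Some marker lists of other cell types also differed between HT-M and NC-F, a contrast in which 48.7% of all genes tested were called (28.7% higher and 20% lower). In bulk tissue, more cells of a type and more RNA per cell cannot be told apart. The 12 measured genes of male germ cells and sperm summed to 16.7 to 21.7 FPKM in IC-M, 16.9 to 20.3 in NC-F and 19.6 to 21.1 in HT-M, against 1377 or more in every testis-type library. In this list the testis marker odf3b was at 0, 0 and 0 in IC-M, at 0.07, 0 and 0.07 in NC-F and at 0, 1.17 and 0.22 in HT-M, and spata4 was at most 0.05. Of the 4 genes of this list tested, 1 was higher and 1 lower in HT-M than in NC-F. The meiotic genes hormad1 and sycp3 of this list add to the ovary-type sums and went opposite ways between NC-F and HT-M. In ovary-type libraries the sum is therefore not a measure of male cells alone. Under the filter, rsph14 lay between 0.05 and 0.39 in NC-F and between 0.97 and 1.86 in HT-M, and cfap73 between 0.05 and 0.19 and between 0.32 and 0.77. Both were chosen after their values were seen. Of all 15328 genes above 0 in an ovary-type library and under the filter, 13.1% were higher and 5.64% lower in HT-M with no overlap. The Leydig cell hormone gene insl3 was listed at 0, 0.10 and 0.21 in IC-M, at 0 in all libraries labelled NC-F and at 0.10, 0 and 0 in HT-M.

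The 7 measured granulosa and theca genes summed to 47.1 to 58.4 FPKM in IC-M, 60.4 to 92.5 in NC-F and 156 to 162 in HT-M. In the testis type they summed to 113 to 130 in IC-F, 161 to 225 in NC-M and 138 to 181 in HT-F. The list therefore does not mark ovarian cells alone. Of the 6 genes of this list tested in the ovary type, 5 were higher in HT-M than in NC-F and none lower, beside 28.7% of all genes tested higher and 20% lower. Without HT-M 1 or without HT-M 3, 3 of the 6 were called. Star, 1 of these and also of the Sertoli and Leydig list, passed the filter through HT-M alone, and without it the counts were 4 of 5 granulosa and theca genes and 2 of 5 Sertoli and Leydig genes higher. Cldn5a of the endothelial list and pdgfra of the stromal list likewise passed through HT-M alone, and without them 3 of 3 and 7 of 8 genes were higher. The 10 endothelial genes summed to 6.10 to 8.02, 9.32 to 10.1 and 31.3 to 39.2 in IC-M, NC-F and HT-M, with all 4 tested genes higher in HT-M than in NC-F. The 11 stromal, smooth muscle and mesothelial genes summed to 611 to 691, 570 to 649 and 755 to 1171, with 8 of 9 tested genes higher. The 7 Sertoli and Leydig genes summed to 92.4 to 97.9, 105 to 113 and 124 to 140, with 3 of 6 tested genes higher (1 called without HT-M 1 or without HT-M 3), and 3 genes of the list (fshr, star and inha) also stand in the granulosa list. The 7 oocyte genes summed to 2629 to 2806, 3022 to 3392 and 2236 to 2575, with 1 tested gene higher and 4 lower in HT-M than in NC-F, and 3 called in all without NC-F 1, NC-F 2 or HT-M 3. The 4 myeloid genes summed to 27.2 to 34.2, 30.6 to 39.2 and 74.5 to 110, with 1 of 2 tested genes higher. The 2 red blood cell genes summed to 0.98 to 1.32 in NC-F and 2.28 to 4.03 in HT-M, with 1 of 2 tested genes higher, a gene that passed the filter through HT-M alone. The 4 liver genes summed to 0.25 to 2.14 in IC-M, 0.13 to 0.43 in NC-F and 1.20 to 4.81 in HT-M, with the 1 tested gene higher in HT-M than in NC-F. In the testis type this list stood at 47.6 in HT-F 1, against 5.38 and 3.06 in HT-F 2 and HT-F 3. The share called was 50% in the male germ cell, Sertoli and Leydig, myeloid and red blood cell lists, near the 48.7% of all genes. The part of these cell types in the values of the 6 genes was not tested.

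In testis-type gonads, HT-F was set against NC-M in a fit of the 9 testis-type libraries. Dmrt1 rose by 0.74 ± 0.153 (limma adjusted p = 0.0313), to 1.70 times its level in NC-M, and was 1 of the 6 genes called, beside 10.7% of the 22791 genes tested (6.17% higher and 4.5% lower). Amh differed by −0.35 ± 0.438, sox9a by −0.30 ± 0.399, wt1a by 0.17 ± 0.226, wt1b by −0.77 ± 0.414 and gata4 by −0.32 ± 0.265 (adjusted p = 0.586, 0.607, 0.598, 0.207 and 0.396), and all 5 overlapped between the groups, while 31.2% of all genes tested did not overlap (18.4% higher and 12.8% lower). The dmrt1 call ended without IC-F 1, IC-F 2, IC-F 3, NC-M 1, NC-M 2, HT-F 2 or HT-F 3 (adjusted p = 0.0668, 0.0651, 0.0702, 0.055, 0.0918, 0.111 and 0.112) and with the block (0.0783), while the difference stayed between 0.65 and 0.88.

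The library NC-M 3 decided the calls of 3 other genes in this contrast. Without it sox9a, wt1b and gata4 were lower in HT-F, by −0.79, −1.31 and −0.64 (limma adjusted p = 0.0215, 0.000946 and 0.00858), and 10693 genes in place of 2432 were called. The summed male germ cell genes stood at 2619 FPKM in NC-M 3 against 1377 and 1384 in NC-M 1 and NC-M 2, and the summed endothelial genes at 52.4 against 80.3 and 81.2. Without NC-M 2, which held the highest amh, the amh difference turned to 0.23 and that of sox9a to 0.01, and without HT-F 3 that of wt1a turned to −0.09, none of them called.

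Between day 0 and day 28 at 20 °C, NC-M was set against IC-F. Wt1b rose by 2.17 ± 0.414, gata4 by 1.26 ± 0.265 and wt1a by 0.96 ± 0.226 (limma adjusted p = 0.00726, 0.0099 and 0.0146), beside 34.5% of all genes tested called (16.4% higher and 18.1% lower). Dmrt1 differed by 0.37 ± 0.153, sox9a by 1.08 ± 0.399 and amh by 0.15 ± 0.438 (adjusted p = 0.0928, 0.0672 and 0.803). Dmrt1, wt1a, wt1b and gata4 did not overlap between the groups, all higher, beside 50.5% of all genes tested (27% higher and 23.5% lower). Leaving out IC-F 2 or IC-F 3 ended the wt1a call (adjusted p = 0.0564 and 0.0551). In this contrast 9 of 12 tested male germ cell genes were lower (median −1.91), with list sums of 4214 to 4334 FPKM in IC-F and 1377 to 2619 in NC-M, and their part in these values was not tested. Without NC-M 3 sox9a was called, at 1.57 (adjusted p = 0.000862), beside 12149 of all genes in place of 7869. Without NC-M 2 the amh difference turned to −0.42 (adjusted p = 0.183). In the fit of all 18 libraries dmrt1 and sox9a were called as well (adjusted p = 0.0201 and 0.00988). The share of all genes called in that fit is not given here, so these added calls do not set the 2 genes apart.

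Against day 0, HT-F held more dmrt1, by 1.11 ± 0.153 (limma adjusted p = 0.00311) or 2.21 times, and this call held without any 1 library (adjusted p of at most 0.0238). Wt1a rose by 1.13 ± 0.226, wt1b by 1.40 ± 0.414 and gata4 by 0.94 ± 0.265 (adjusted p = 0.011, 0.0419 and 0.0359), beside 23.9% of all genes tested called (14.8% higher and 9.04% lower). In this contrast 6 of 8 tested stromal, smooth muscle and mesothelial genes were higher, with list sums of 686 to 727 FPKM in IC-F and 1150 to 2768 in HT-F. Of 12 male germ cell genes 3 were lower and 1 higher, with sums of 4214 to 4334 and 2390 to 2748, and the part of either list was not tested. Amh and sox9a differed by −0.19 ± 0.438 and 0.78 ± 0.399 (adjusted p = 0.777 and 0.187), although none of the 6 genes overlapped between the groups, as for 59.4% of all genes tested (34% higher and 25.4% lower). The wt1b and gata4 calls ended without any 1 library of IC-F or HT-F (adjusted p between 0.0676 and 0.12), with no filter, after median-of-ratios scaling and with the block, and leaving out IC-F 2 or IC-F 3 ended that of wt1a (adjusted p = 0.0521 and 0.0513). Without NC-M 3 sox9a was called (adjusted p = 0.0169), beside 9893 of all genes in place of 5438. With the NC-M libraries left out of the fit, a setting chosen after seeing the data, the 4 calls held and sox9a was called too (adjusted p = 0.0189). The number of all genes called also rose in that setting, as given with the processing below. The added call therefore does not set sox9a apart.

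The difference between the ovary-type and testis-type changes at day 28 was tested in the fit of all 18 libraries. Of the 6 genes, wt1b was called at 1.38 ± 0.452 and dmrt1 at −0.58 ± 0.168 (limma adjusted p = 0.0312 and 0.0177), beside 32.6% of all 25184 genes tested (16.3% higher and 16.4% lower). Dmrt1 passed the filter of this fit through the testis-type libraries alone, so its p-value and its place in this count are given as a description only. The sign of the dmrt1 value comes from adding 1 to FPKM values near 0. With 0.1 added in place of 1 it was 0.09 (adjusted p = 0.785), and as a ratio of means dmrt1 stood at 3.11 in the ovary type and 1.70 in the testis type. The wt1b call ended without NC-F 1, NC-F 2, NC-F 3, HT-M 2, NC-M 1, NC-M 2 or HT-F 2 (adjusted p between 0.0522 and 0.0727). The other 4 genes were not called (amh 0.35 ± 0.48, sox9a −0.45 ± 0.429, wt1a 0.39 ± 0.294 and gata4 0.74 ± 0.318), and gata4 was called without NC-M 3, at 1.06 (adjusted p = 0.00132).

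**Figure D4:**
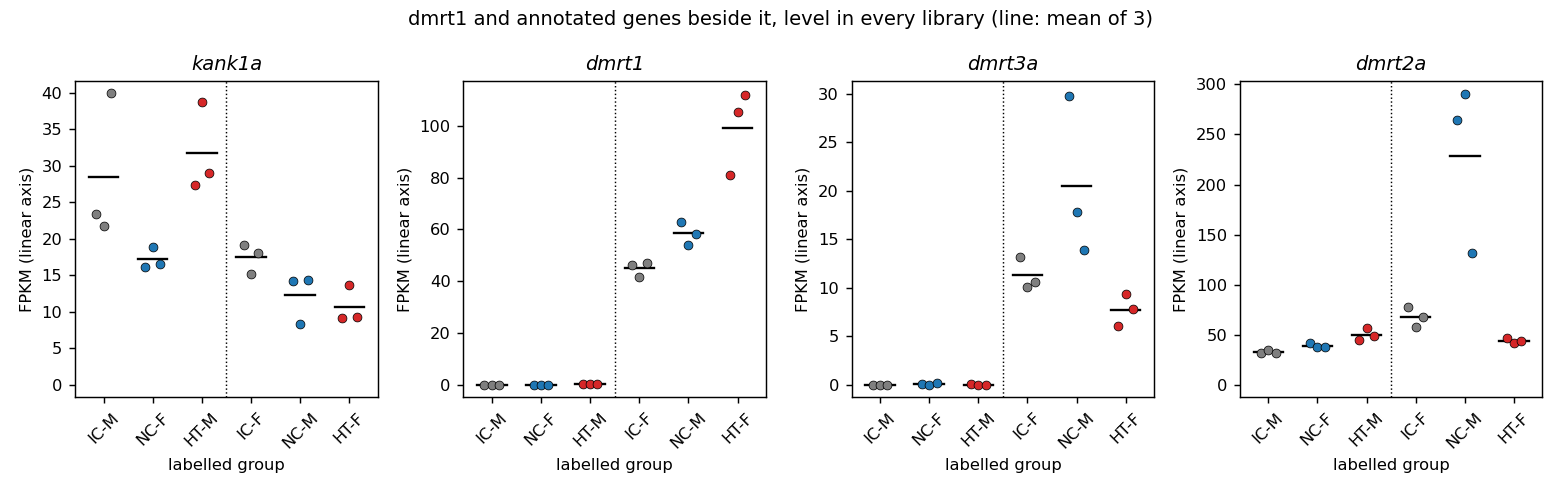
FPKM (linear axis) of dmrt1 and of 3 annotated genes beside it in each library, with the group mean as a bar. Dmrt3a shared the near absence from ovary-type libraries, kank1a and dmrt2a were measured in both gonad types, and dmrt2a and dmrt3a were highest in NC-M where dmrt1 was highest in HT-F.

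Dmrt1 lies beside dmrt3a and dmrt2a in the RefSeq gene order, a cluster of DM domain genes that many vertebrates share. On its other side the nearest coding gene is the unnamed LOC119892468, which the plot of this cluster leaves out, and kank1a follows. LOC119892468 was at 0.11 FPKM or less in every ovary-type library and at 58.6 ± 0.759 in IC-F, 13.2 ± 12.8 in NC-M and 23.9 ± 7.29 in HT-F (SD, n = 3). Dmrt3a stood at 11.3 ± 1.64 FPKM (SD, n = 3) in IC-F, 20.5 ± 8.31 in NC-M and 7.74 ± 1.67 in HT-F, and at 0.15 or less in every ovary-type library. Dmrt2a was measured in both gonad types, at 33.0 ± 1.77 in IC-M, 38.9 ± 2.40 in NC-F and 50.04 ± 5.89 in HT-M, and at 67.7 ± 10.2 in IC-F, 229 ± 85.0 in NC-M and 43.8 ± 2.38 in HT-F. From NC-M to HT-F dmrt2a fell by 2.28 on the log2 scale and dmrt3a by 1.25 (SE 0.284 and 0.277, limma adjusted p = 0.00979 and 0.0351), where dmrt1 was higher. The dmrt2a call ended without HT-F 2 or HT-F 3 (adjusted p = 0.0556 and 0.0567). The dmrt3a call ended without any library but NC-M 3 (adjusted p between 0.0632 and 0.111).

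Of the other genes listed as partners on the testis side, 22 of 39 were found by symbol and 13 were tested in ovary-type libraries. In HT-M against NC-F, 5 were higher and 1 lower, a share called of 46.2% that is near the 48.7% of all genes (median 0.34 against 0.07 for all genes), and 3 were called in all without HT-M 2 or without HT-M 3. The growth factor receptor genes pdgfra and fgfr2 passed the filter through HT-M alone, and without them 3 of 11 were higher and 1 lower (median 0.23). Gata6, a relative of gata4 found in granulosa and theca cells of mammals, rose in both steps from IC-M to NC-F and from NC-F to HT-M. It stood at 3.67 ± 0.48 FPKM in IC-M and 8.05 ± 1.36 in NC-F (log2 0.95 ± 0.141 SE, limma adjusted p = 0.0022). That call held without any 1 library (adjusted p of at most 0.0119). In HT-M it stood at 17.3 ± 1.64 (log2 1.02 ± 0.141 SE against NC-F, limma adjusted p = 0.000846), a level above that of each testis-type group mean. The hedgehog receptor gene ptch1 rose by 0.43 ± 0.124 from NC-F to HT-M (adjusted p = 0.0193), and the DM domain gene dmrta2 fell by 0.59 ± 0.145 (adjusted p = 0.0103). Ptch1 lost its call without NC-F 2 or HT-M 3 (adjusted p = 0.0583 and 0.072). Between IC-M and NC-F ptch1 had changed the other way (−0.595, limma adjusted p = 0.0104), and dmrta2 was not called (0.307, adjusted p = 0.148). Against IC-M, HT-M was called for neither ptch1 nor dmrta2 (−0.16 and −0.284, limma adjusted p = 0.391 and 0.196). Pdgfra, which also stands in the stromal marker list, lay between 0.65 and 0.70 FPKM in NC-F and between 1.89 and 2.39 in HT-M, and fgfr2 between 0.35 and 0.60 and between 1.12 and 1.46.

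Of the 25 genes listed on the ovary side, 19 were found and 12 tested, and 5 were higher and 1 lower in HT-M than in NC-F, a share called of 50% that is near the 48.7% of all genes (median 0.18). Foxl2a, the transcription factor gene that holds granulosa cells to the ovarian fate, stood at 11.3 ± 0.952 FPKM in IC-M, 22.1 ± 5.81 in NC-F and 38.6 ± 0.523 in HT-M. It rose by 0.81 ± 0.162 from NC-F to HT-M (limma adjusted p = 0.00438) and by 1.69 ± 0.162 from IC-M to HT-M (adjusted p = 0.000131), and both calls held without any 1 library. The oestrogen receptor gene esr2b rose by 0.62 ± 0.114 (adjusted p = 0.0031), but was higher in testis-type than in ovary-type gonads, by 1.72, 2.58 and 1.78 at day 0, 20 °C and 28 °C, and the oocyte growth factor gene gdf9 fell by 0.64 ± 0.0996 (adjusted p = 0.00147), from 68.8 ± 7.14 to 43.7 ± 2.30 FPKM. Lef1 and runx1 were called at 0.61 and 0.51 (adjusted p = 0.02 and 0.0238), and lost the call after median-of-ratios scaling (0.0577 and 0.0726). Lef1 lost it without NC-F 3, HT-M 2 or HT-M 3 and runx1 without NC-F 1, NC-F 3 or HT-M 2 (adjusted p between 0.0592 and 0.0777). In IC-M lef1 stood at 14.7 FPKM, runx1 at 10.7 and gdf9 at 47.9. NC-F held 9.70 of lef1 and 5.41 of runx1, and HT-M 15.4 and 8.14. Against IC-M, HT-M was called for none of lef1, runx1 and gdf9 (0.06, −0.34 and −0.13, limma adjusted p = 0.838, 0.149 and 0.39), but was for esr2b (0.62, 0.00449). From IC-M to NC-F runx1 fell (−0.85, adjusted p = 0.00562), gdf9 rose (0.51, 0.00788) and lef1 was not called (−0.55, 0.0503).

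From NC-M to HT-F, 1 of 13 tested testis-side partners was higher and 4 were lower, beside 10.7% of all genes tested, and 0 to 2 were called when 1 library other than NC-M 3 was left out. Fgfr2 passed the filter through NC-M alone, and without it 1 of 12 was higher and 3 were lower. By limma none of the 6 tested ovary-side genes was called, and 0 had an unadjusted p under 0.05. By limma, insl3 rose to 106 ± 29.5 FPKM in HT-F from 49.99 ± 14.3 in NC-M (log2 1.06 ± 0.263 SE, adjusted p = 0.0437), a call that ended without any library but NC-M 3 and HT-F 1 (adjusted p between 0.0778 and 0.135). Against day 0 it rose by 1.33 ± 0.263 from 40.4 ± 4.62 (adjusted p = 0.0107), a call that ended when IC-F 2 or IC-F 3 was left out (0.0511 and 0.0502). Wnt4, which acts on the ovary side in mammals, fell by 0.91 ± 0.159 from IC-F to NC-M and by 0.93 ± 0.159 to HT-F (adjusted p = 0.00565 and 0.00661).

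Over the 9 ovary-type libraries the log2 levels of dmrt1, amh, wt1a, wt1b and gata4 were all positively correlated with one another. The values ran from 0.527 (dmrt1 and amh) to 0.903 (wt1a and gata4), with 0.885 between wt1a and wt1b. Sox9a was negatively correlated with each of them, from −0.473 (amh) to −0.963 (dmrt1), with −0.883 for wt1b. Dmrt1 was at most 0.21 FPKM in these libraries. Over the 9 testis-type libraries the correlation was 0.972 between wt1b and gata4, 0.949 between sox9a and wt1b and −0.26 between dmrt1 and amh. Sox9a thus ran against wt1b in the ovary type and with it in the testis type. These points share libraries and groups of 3 and are given as a description.

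Among the named genes, the nearest pattern to dmrt1 over the 9 testis-type libraries was that of zfand5a (r = 0.993), followed by ostm1 and sbds (0.991 each). Wt1b was nearest to hnrnpc (0.993), gata4 to serpinh1a (0.983), sox9a to mgat1b (0.981), wt1a to bdh2 (0.981) and amh to pik3cg (0.927). Over the 9 ovary-type libraries, wt1b was nearest to fstl1b (0.991), amh to soul5 (0.987), wt1a to adma (0.984), sox9a to gtf2h3 (0.983) and gata4 to ssuh2rs1 (0.969). Fstl1b stood at 2.63 ± 0.531 FPKM in IC-M, 4.71 ± 0.355 in NC-F and 16.6 ± 5.19 in HT-M.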

How the data were processed

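The deposited table held FPKM with 2 decimals for 18 gonad libraries, per the file headers. The aligner and counting tool are not named in any source used here, nor is the build. Each library took 0.4 ug of RNA, per the labels' protocols. FPKM are not counts, so no counting interval was computed. Columns were matched to samples by their description labels, with 0 columns unused. Tests used limma 3.58.1 in R 4.3.3 (lmFit, contrasts.fit, eBayes with trend) on log2(FPKM + 1), which understates the change of low genes, for genes with at least 1 FPKM in at least 3 libraries of the fit. Fits held the 9 libraries of a gonad type, or all 18 for contrasts across types. P-values were adjusted by Benjamini-Hochberg over all genes tested and called under 0.05. The script was tested on simulated data. Figures used Python 3.11.15 and matplotlib 3.10.9.

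The 6 genes, the lists and the contrasts were chosen with earlier results of these data known. Named genes are the 6, up to 4 called partners per list, direction and within-type contrast with the smallest adjusted p, of which the text gives those that matter, and the nearest of 3 named genes by Pearson correlation over the 9 libraries of a type (mean of at least 1 FPKM). Of the marker lists, genes were counted where the table held their symbol, and marker genes given by name were chosen after their values were seen.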

Additional observations from a re-analysis of the deposited data

Results flagged for a closer look

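A test of the difference between the ovary-type and testis-type changes at day 28 passed its threshold for wt1b and dmrt1. The wt1b value of (HT-M minus NC-F) minus (HT-F minus NC-M) was 1.38 on the log2(FPKM + 1) scale (limma adjusted p = 0.0312), with 6.06 to 8.02 FPKM in HT-M against 3.88 to 4.33 in NC-F and 33.1 to 46.7 in HT-F against 32.2 to 118.7 in NC-M. The wt1b call ended when NC-F 1, NC-F 2, NC-F 3, HT-M 2, NC-M 1, NC-M 2 or HT-F 2 was left out (adjusted p between 0.0522 and 0.0727). The dmrt1 value was −0.58 (limma adjusted p = 0.0177), and it turned to 0.09 (adjusted p = 0.785) when 0.1 was added in place of 1, so no difference is shown for dmrt1. Dmrt1 also passed the filter of that fit through the testis-type libraries alone, so its value is given as a description only. Groups of 3 libraries are too small for the test of single libraries that lie apart.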

How the results depend on the processing

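Contrasts between testis-type and ovary-type groups kept their counts of called genes within 1.5 times under every alternative. Fitting all 18 libraries together moved the number of the 6 genes called from 3 to 0 in HT-M against NC-F (with unmoved log2 values of −0.75 for sox9a, 0.56 for wt1a and 0.61 for wt1b), from 3 to 1 in NC-F against IC-M, from 5 to 2 in HT-M against IC-M and from 3 to 5 in NC-M against IC-F, and all genes called from 4345 to 2815 in NC-F against IC-M, from 2432 to 8568 in HT-F against NC-M and from 5438 to 8941 in HT-F against IC-F. For the other contrasts within a gonad type, the count of all genes called in that fit is not given here. With no filter, dmrt1 was called in HT-M against NC-F at 0.16 and wt1a was not at 0.56, all genes called in HT-F against NC-M were 1159, and 2 of the 6 were called in HT-F against IC-F. A filter at 5 FPKM left 2463 genes called in HT-M against IC-M, and members under it gave no value. Median-of-ratios scaling turned amh to −0.077 and gave wt1a 0.48 in HT-M against NC-F, with 2 of the 6 called in HT-F against IC-F. It shifted the median of all genes by −0.11 in HT-M against IC-M, by −0.12 and −0.14 for NC-M and HT-F against IC-F, and by −0.20, −0.21 and −0.23 across types at day 0, 20 °C and 28 °C. The share of calls that were higher moved from 58.9% to 48.0% in HT-M against NC-F, from 65.6% to 46.8% in HT-M against IC-M, from 47.5% to 36.3% in NC-M against IC-F and from 62.1% to 46.2% in HT-F against IC-F. In the difference of day-28 changes, 1 of the 6 was called with a pseudocount of 0.1 (dmrt1 turning to 0.092), with no filter or after scaling. With NC-M left out of the fit, 10617 genes in place of 5438 were called in HT-F against IC-F.

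The replicate numbers did not pair the libraries: of 18 same-number pairs, 1 had deviations correlated over 0.1 (r from −0.24 to 0.24). With the replicate number as a block, wt1a (0.56) lost and gata4 (0.41) gained its call in HT-M against NC-F, 0 of the 6 and 129 of all genes were called in HT-F against NC-M, and 2 of the 6 and 3390 of all genes in HT-F against IC-F.

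Leaving out each library in turn gave the following ranges. In HT-M against NC-F amh lay between −0.089 and 0.080 (−0.014 and −0.0063 without HT-M 2 and HT-M 3), wt1a between 0.41 and 0.75 and gata4 between 0.31 and 0.57. Of the 6 genes, 1 to 3 were called in NC-F against IC-M, 0 to 4 in HT-F against NC-M, 2 to 4 in NC-M against IC-F, 1 to 5 in HT-F against IC-F and 1 to 3 in the difference of changes. All genes called ranged from 2262 to 4703 in NC-F against IC-M, 2566 to 5709 in HT-M against IC-M, 62 to 10693 in HT-F against NC-M, 3787 to 12149 in NC-M against IC-F, 1815 to 9893 in HT-F against IC-F and 6212 to 12914 in the difference. The highest of the last 4 counts came without NC-M 3. Values that changed sign, not called where they did, were sox9a in NC-F against IC-M (−0.10 to 0.032), in HT-F against NC-M (−0.79 to 0.0063) and in the difference (−0.76 to 0.045), amh in HT-F against NC-M (−0.80 to 0.23), NC-M against IC-F (−0.42 to 0.61) and the difference (−0.23 to 0.80), and wt1a in HT-F against NC-M (−0.088 to 0.39). The cause was not tested for any of these. The depth of the libraries is unknown, which limits values under about 1 FPKM.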

Other observations

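Tcf21, a transcription factor gene of mesenchymal cells that is listed as a testis-side partner from its role in mammals, stood far higher in ovary-type than in testis-type libraries. It stood at 209 ± 16.2 FPKM in IC-M, 148 ± 14.2 in NC-F and 138 ± 12.7 in HT-M, and at 1 or less in every testis-type library. Within the ovary type it fell by 0.49 ± 0.104 from IC-M to NC-F and by 0.60 ± 0.104 from IC-M to HT-M on the log2 scale (limma adjusted p = 0.011 and 0.0033), and the first call ended in the fit of all 18 libraries (0.107). Hormad1 and sycp3 are meiotic genes of the male germ cell list. Both were also measured in ovary-type libraries, so they do not mark male cells alone. They differed in opposite directions between NC-F and HT-M, with no overlap, and were chosen after their values were seen. Hormad1 stood at 1.39, 1.67 and 2.27 FPKM in NC-F and at 6.95, 5.73 and 6.61 in HT-M, and sycp3 at 8.47, 6.89 and 5.97 in NC-F and at 1.71, 0.58 and 0.29 in HT-M. Zfand5a, the named gene most like dmrt1 over the testis-type libraries, stood at 88.4 ± 16.0 in HT-M against 29.9 ± 10.6 in HT-F, the reverse of dmrt1.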
